A study of Mus musculus with 5 samples.

Results

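The heat shock and chaperone genes described here are the 78 genes whose listed symbols begin with Hsp, Dnaj, Cct and a number, Bag and a number, or Hsf, out of 17024 symbols in the deposited lists and 14136 that are protein-coding. They comprise 5 heat shock factors, 3 HSP90 genes, 11 HSP70 and HSP110 genes, 2 genes of HSP60 and HSP10, 4 small heat shock proteins, 4 DNAJA, 9 DNAJB and 25 DNAJC genes, 7 CCT subunits, 5 BAG genes and 3 further matches by name. One of those 3, Hspg2, encodes the matrix proteoglycan perlecan and is no chaperone. Heat shock proteins and their partners are the chaperones that fold new proteins, hold damaged ones and pass them on for repair or removal. HSP70 and HSP90 bind their clients with the help of J proteins (the DNAJ families), BAG proteins and other cochaperones, HSP60 and the CCT ring fold clients inside a closed chamber, and small heat shock proteins hold unfolded chains. Heat shock factors, above all HSF1, switch on many of these genes by binding heat shock elements in their promoters, and dendritic cells use several of the same chaperones in antigen handling.

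The cells were dendritic cells grown for 7 days from bone marrow of C57BL/6 female mice aged 10 weeks, with 10 ng/mL of GM-CSF and of IL-4, then selected for CD11c to a labelled purity of 95%. They were held for 12 hours in diluent or in SAHA, an inhibitor of histone deacetylases also called vorinostat, at a dose labelled 500 nm. Chromatin immunoprecipitation and sequencing gave 5 libraries: STAT3 and H3K4me3 in each condition, and control IgG from diluent cells. STAT3 is a transcription factor downstream of cytokine receptors, and H3K4me3 is the histone mark found at active promoters. The labels do not say how many mice gave the marrow or whether they were pooled. Each group is 1 library, so no difference between the conditions has a replicate check. The filtered tags, the mapped reads left after excess repeats at a position were removed, numbered between 17810183 (STAT3 in SAHA) and 25013431 (STAT3 in diluent), with 22420200 for H3K4me3 in diluent and 21428355 in SAHA. All 9 dendritic cell markers checked, among them Itgax, Zbtb46 and Cd74, had an H3K4me3 region at their start in both libraries. Of the markers of other cells, 2 of B cells and 1 of NK cells were listed and had no such region. The 1 granulocyte marker listed, S100a8, had an H3K4me3 region in both libraries, with 78 tags in diluent. S100a9, Mpo, Ms4a1, Ncr1 and the T cell, erythroid and other tissue markers have no listed start, so they were not checked.

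Promoter letters are shown first for 5 genes to which the later results return, the inducible HSP70 pair, HSP10 and the main HSP70 and HSP90 chaperones of the endoplasmic reticulum (ER). Each run is the 250 bases before the start on the gene's strand, from RefSeq in build GRCm38.p6, a build other than the mm9 of the deposited regions, so the 2 sets of positions must not be joined. Capitals mark GAANNTTC in Hspa1a and Hspa1b, the joined 3-unit heat shock elements in Hspe1, and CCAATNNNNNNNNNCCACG, the ER stress response element, in Hspa5 and Hsp90b1.
Hspa1a, chr17:34972157-34972406, minus strand: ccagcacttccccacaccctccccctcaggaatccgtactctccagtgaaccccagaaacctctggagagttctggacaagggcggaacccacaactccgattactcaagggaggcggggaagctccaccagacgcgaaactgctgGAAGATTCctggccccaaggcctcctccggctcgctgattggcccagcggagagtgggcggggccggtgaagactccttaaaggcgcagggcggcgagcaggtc
Hspa1b, chr17:34959239-34959488, minus strand: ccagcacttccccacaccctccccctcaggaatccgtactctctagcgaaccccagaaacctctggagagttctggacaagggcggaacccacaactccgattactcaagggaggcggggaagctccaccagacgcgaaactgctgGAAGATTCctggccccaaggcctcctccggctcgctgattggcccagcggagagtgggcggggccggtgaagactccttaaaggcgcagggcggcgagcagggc
Hspe1, chr1:55087898-55088147, plus strand: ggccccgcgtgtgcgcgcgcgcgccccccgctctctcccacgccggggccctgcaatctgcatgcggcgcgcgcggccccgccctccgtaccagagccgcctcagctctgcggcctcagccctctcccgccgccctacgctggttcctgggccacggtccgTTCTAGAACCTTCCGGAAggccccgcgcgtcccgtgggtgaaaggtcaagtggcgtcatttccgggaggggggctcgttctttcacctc
Hspa5, chr2:34771840-34772089, plus strand: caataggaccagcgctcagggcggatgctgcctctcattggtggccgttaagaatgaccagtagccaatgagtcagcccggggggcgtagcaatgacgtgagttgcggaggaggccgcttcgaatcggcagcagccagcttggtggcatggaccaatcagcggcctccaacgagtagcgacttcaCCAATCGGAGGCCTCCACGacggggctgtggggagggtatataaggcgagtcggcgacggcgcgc
Hsp90b1, chr10:86705445-86705694, minus strand: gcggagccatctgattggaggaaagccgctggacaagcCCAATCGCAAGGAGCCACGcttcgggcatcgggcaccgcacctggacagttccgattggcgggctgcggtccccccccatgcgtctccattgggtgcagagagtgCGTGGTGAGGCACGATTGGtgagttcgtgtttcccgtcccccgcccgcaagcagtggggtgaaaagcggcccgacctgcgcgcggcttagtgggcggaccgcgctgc

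The windows of Hspa1a and Hspa1b, 300 bases long with the first 50 of the transcript, differed at 4 bases (98.7% identity). Reads from such near-identical copies can be placed at either gene, with the handling of such reads not given in the sources used here, so values at this pair are uncertain. Of the 78 genes, 62 matched the RefSeq table, with 79 windows. On both strands, GAANNTTC was in 13 of the 79 windows (16.5%, against 7.86% of 32851 windows of all genes), including those of Hspb1, Dnaja1, Bag3 and Cct2. TTCNNGAA was in 9 windows (11.4% against 8.52%). The 3-unit element, in which GAANNTTC and TTCNNGAA overlap by 1 unit of 3 bases on either strand and which therefore contains both, was in 4 windows (5.06% against 0.603%), those of Hspd1, Hspe1 and Hsph1. These 4 windows hold 2 separate sites, since Hspd1 and Hspe1 share theirs and Hsph1 has 2 windows over 1 site. At Hsph1, an HSP110 gene, the site lay 36 or 15 bases after the start, depending on which of 2 RefSeq starts is used, and is shown with its units in capitals.
Hsph1, chr5:149636288-149636300, minus strand: TTCtgGAAagTTC
The ER stress response element, which contains a CCAAT box and was added to the search after the windows had been seen, was in 3 windows (3.8% against 0.119%), at Hspa5, Hsp90b1 and Dnajc3. CCAAT alone was in 34 windows (43% against 37.4%). The STAT motif TTCNNNGAA was in 4 windows (5.06% against 8.3%), at Cct5, Dnajc7, Dnajc13 and Dnajc27, none of which had a STAT3 region within 5 kb in either library. A match says only that the letters are there, and its absence only that they are not in this window.

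Nearly all chaperone genes carried H3K4me3 at their start in both conditions. A region called against IgG lay within 5 kb of the listed start at 72 of 78 genes in diluent (92.3%, exact Clopper-Pearson 95% interval 84 to 97.1), where 84.2% of all listed protein-coding genes had one. In SAHA it was 74 of 78 (94.9%, interval 87.4 to 98.6), against 85.2% of all genes. Every gene counted, in the members and in the background, is in the lists because at least 1 region was assigned to it, a requirement that raises both shares. The start itself lay inside the region at 70 genes in diluent and 72 in SAHA. From the start, these regions reached a median of 1201 bp upstream and 1540 bp downstream in diluent, and 1210 and 1630 bp in SAHA. In the authors' deposited table for diluent, 66 of the genes had the score 3100, the highest that list holds, so the score does not rank them.

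The genes without the mark were few. Dnajb7, Dnajc5b, Hsf5 and Hsfy2 had no H3K4me3 region within 5 kb in either list, while the widely expressed factors Hsf1 and Hsf2 had a region over the start in both. Hspb1, which encodes the small heat shock protein HSP27, had a region in the SAHA list and none in the diluent list. In SAHA it spanned 1401 bp, from 478 bp before to 922 bp after the start, and held 78 tags. The diluent table made without a control had a region of 465 bp with 18 tags there, which is absent from the list against IgG. Scaled to depth, the log2 ratio of SAHA to diluent was 2.18 (95% counting interval 1.43 to 3.01) in tags and 0.59 in tags per kb. Dnajc22 likewise had its start covered in the SAHA list alone, by a region of 1622 bp, with no tag count for it in the table made without a control.

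Around the starts that had the mark, the tag number was slightly lower in SAHA at most chaperone genes and differed by at least 1.5-fold at 1 of them. Ratios were taken at 67 genes whose regions overlapped 1 to 1 between the conditions (65 separate regions, as Hspa1a shares 1 with Hspa1l and Hspd1 with Hspe1). The median log2 ratio of SAHA to diluent, scaled to filtered tags, was -0.09 (quartiles -0.16 and -0.03, range -0.66 to 0.40), beside -0.05 (quartiles -0.17 and 0.12) over 10535 protein-coding genes. It was below 0 at 56 of the 67 genes (83.6%, against 58.7% of all genes) and above 0 at 11. Intervals from counting error alone lay wholly below 0 at 27 of the 67 genes, where 31.3% of all genes did, and wholly above 0 at 4, where 20.3% did. These intervals narrow as tags rise. None of the 67 was at least 1.5-fold higher in SAHA (6.26% of all genes) and 1, Dnajb3, was at least 1.5-fold lower (1.86% of all genes). None passed 2-fold upward (2.34% of all genes) or downward (0.475%). The chaperone genes had more tags in diluent than listed genes at large, with medians of 1307 and 948. Among the 4792 genes between the members' own quartiles of diluent tags, 822 and 1827, the median was -0.08, with 69.9% below 0, 34 at least 1.5-fold higher and 10 lower. The 33 members in that range had 29 ratios below 0 (87.9%). Intervals lay below 0 at 1889 of the 4792 genes and above 0 at 599, and at 16 and 0 of the 33 members. These intervals leave out the spread between libraries, which 1 library per group cannot show.

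**Figure D1:**
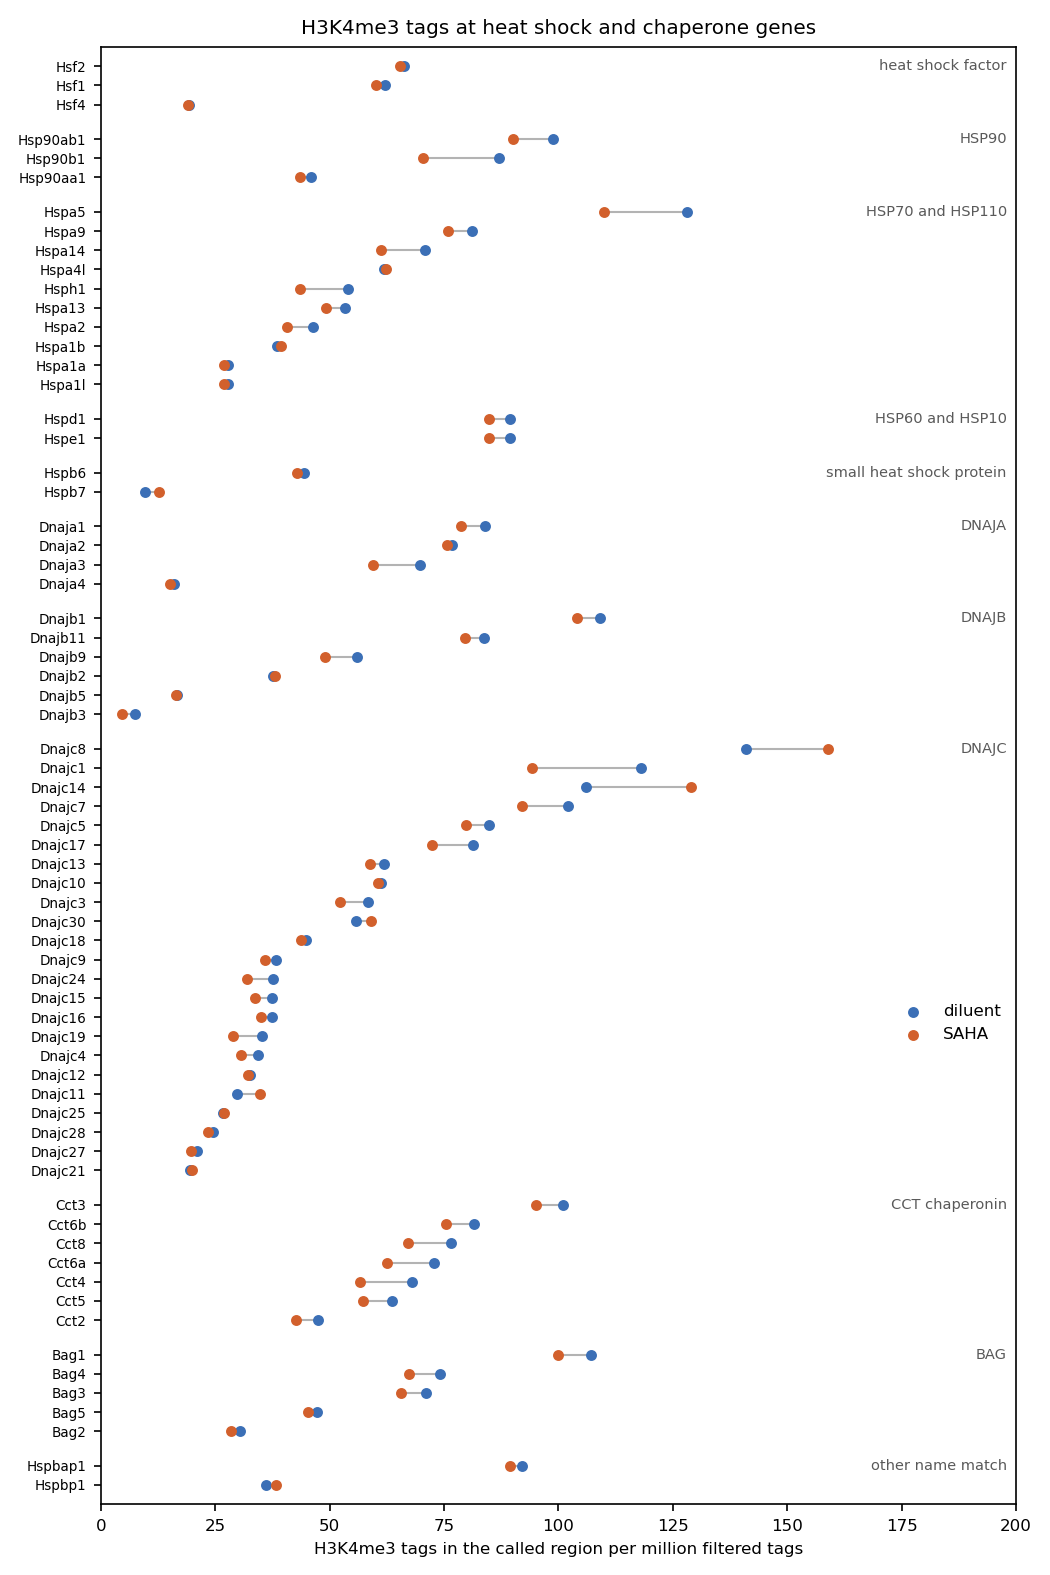
H3K4me3 tags in the called region per 1000000 filtered tags at the 67 genes with 1-to-1 regions, in diluent (blue) and SAHA (orange), ordered by family. Most orange points lie a little to the left of the blue ones, and Dnajc14 and Dnajc8 lie to the right.

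Among the heat shock factors the tag numbers in the 2 libraries lay close together. Hsf1, the main regulator of the heat shock response, had 1391 tags in diluent and 1285 in SAHA (log2 ratio -0.05, interval -0.16 to 0.06). Hsf2 had 1486 and 1402 tags (-0.02, interval -0.12 to 0.09), over a region of 3857 bp in diluent that spanned 4898 bp in SAHA. Hsf4, known from the lens, had 432 and 409 (-0.01, interval -0.21 to 0.18). All 3 intervals span 0, so no difference in tags was detectable at this depth. In tags per kb the log2 ratios were -0.36 at Hsf2 and -0.21 at Hsf1, whose regions were wider in SAHA, beside a median of -0.13 over all genes.

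The 3 HSP90 genes all had ratios below 0, as did 58.7% of all genes, and the ratios differed in size. Hsp90b1, which encodes the ER chaperone GRP94, went from 1951 tags in diluent to 1507 in SAHA (-0.31, interval -0.41 to -0.21) with a nearly equal width of 3851 and 3832 bp. Cytosolic Hsp90ab1 had 2214 and 1930 tags (-0.13, interval -0.22 to -0.04). Stress-inducible Hsp90aa1 had 1029 and 933 (-0.08, interval -0.21 to 0.05). The last of these intervals spans 0, and that of Hsp90b1 does not reach the median of all genes.

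In the HSP70 and HSP110 group, 8 of 10 ratios were below 0 (80%, against 58.7% of all genes). Hsph1, a nucleotide exchange factor of the HSP110 type, had 1210 tags in diluent and 935 in SAHA (-0.31, interval -0.43 to -0.18). Hspa5, the ER chaperone BiP, had 2871 and 2364 tags (-0.22, interval -0.29 to -0.14) in 1 of the widest regions of the set, 6567 bp in diluent and 6920 bp in SAHA. Hspa9, the mitochondrial HSP70, had 1815 and 1627 (-0.09, interval -0.19 to 0.00). The inducible genes were in the lower range in their level, in tags per kb per 1000000 filtered tags. Hspa1a had 9.01 in diluent and 7.29 in SAHA, and Hspa1b 10.6 and 9.86, while the median chaperone gene had 19.2 and 16.4. Hspa2 was close to Hspa1b on this scale (11.8 and 10.4), and Hsf4 (8.02 in diluent), Dnaja4 (7.78) and Hspb7 (4.77) were lower than both inducible genes. In tags, the ratio was -0.05 (624 and 577 tags) at the region shared by Hspa1a and Hspa1l, the testis-type HSP70, and 0.03 (864 and 845 tags) at Hspa1b. Both intervals span 0, and the near-identity of the 2 copies applies to each. Hspa4l, another HSP110 gene, had 1386 and 1338 tags (0.01, interval -0.10 to 0.12).

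The chaperonins, which fold clients inside a chamber, were below 0 in both compartments. Hspd1 and Hspe1 encode mitochondrial HSP60 and HSP10 and run in opposite directions away from the promoter with the 3-unit elements shown above. They share a region with 2005 tags in diluent and 1815 in SAHA (-0.08, interval -0.17 to 0.01). All 7 cytosolic CCT genes present (Cct2, Cct3, Cct4, Cct5, Cct6a, Cct6b and Cct8) were lower in SAHA, as were 58.7% of all genes. All 7 intervals lay below 0, where 31.3% of all genes did. The median ratio of the CCT genes was -0.16. Their ratios ran from -0.26 at Cct4 (1524 and 1215 tags) to -0.09 at Cct3 (2271 and 2037 tags). Cct5, Cct6a and Cct6b have the start of another coding gene within 1 kb (Fam173b, Psph and Zfp830). The lists assigned the Cct6b region to Zfp830 in both conditions and the Cct6a region to Psph in SAHA, so these tags are not of CCT genes alone. Per kb, 5 of the 7 were lower, while Cct2 (0.07) and Cct6b (0.11) were higher, with regions that were shorter in SAHA, 2419 and 2069 bp at Cct2 and 3398 and 2910 bp at Cct6b. The CCT genes had a median of 24 tags per kb per 1000000 filtered tags in diluent, beside 17 over all genes.

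J proteins, which hand clients to HSP70, had ratios on both sides of 0. All 4 DNAJA genes were below 0, as were 58.7% of all genes. Among the 4, Dnaja3, a mitochondrial J protein, was lowest at -0.23 (1564 and 1273 tags). Dnaja1 had 1884 and 1687 tags (-0.09, interval -0.19 to 0.00). Dnajb1, the main cytosolic HSP40, had 2443 and 2237 tags (-0.06, interval -0.15 to 0.02). Dnajb3 had the lowest ratio, -0.66 (interval -1.03 to -0.29), on few tags, 165 in diluent and 100 in SAHA, in a region 1219 bp wide in diluent. That is the narrowest of the paired regions as well as the thinnest in tags. Dnajc1, an ER membrane J protein, had 2639 tags in diluent and 2018 in SAHA (-0.32, interval -0.41 to -0.24). Its region was wider in SAHA, 7589 bp against 6122 bp, so per kb the ratio was -0.63, the lowest of the set on that scale. Dnajc19, of the mitochondrial import motor, had 786 and 619 tags (-0.28, interval -0.43 to -0.13).

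The J protein genes with the highest ratios were Dnajc14, Dnajc11, Dnajc8 and Dnajc30. Dnajc14 had 2383 tags in diluent and 2755 in SAHA (0.27, interval 0.19 to 0.35) and was higher per kb too (0.17). Dnajc11, a mitochondrial J protein, had 668 and 743 tags (0.22, interval 0.07 to 0.37). Dnajc8, which associates with the splicing machinery, had 3168 and 3412 tags (0.17, interval 0.10 to 0.24). The region of Dnajc8 was also wider in SAHA, 7058 bp in SAHA against 5597 bp, and per kb the gene was lower (-0.16). Dnajc30 had 1249 and 1265 tags (0.08, interval -0.03 to 0.20), an interval that spans 0, and a ratio of -0.23 per kb. Its start lies within 1 kb of that of Wbscr22. The highest ratio among the 67 paired genes belonged to Hspb7, a small heat shock protein best known from heart, with 215 and 271 tags (0.40, interval 0.14 to 0.66). Its region, however, began 4241 bp from the listed start.

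The BAG family and the ER group, of 5 and 8 genes, gave ratios on 1 side of 0. Over all genes, 58.7% of ratios and 31.3% of intervals lay below 0. Among genes between the members' quartiles of diluent tags, 69.9% of ratios did. The 5 BAG genes, nucleotide exchange factors for HSP70, were all below 0 (median -0.10), among them Bag1 with 2409 and 2142 tags (-0.10, interval -0.19 to -0.02) and stress-inducible Bag3 with 1591 and 1404 (-0.12, interval -0.22 to -0.01). The 8 paired genes of ER chaperones and their J proteins were all below 0 as well, 5 with intervals below 0, with a median of -0.18. The 8 mitochondrial genes had a median of -0.09 and the 32 genes assigned to the cytosol or nucleus one of -0.09. No test of the difference between these groups, or between them and all genes, was made.

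**Figure D2:**
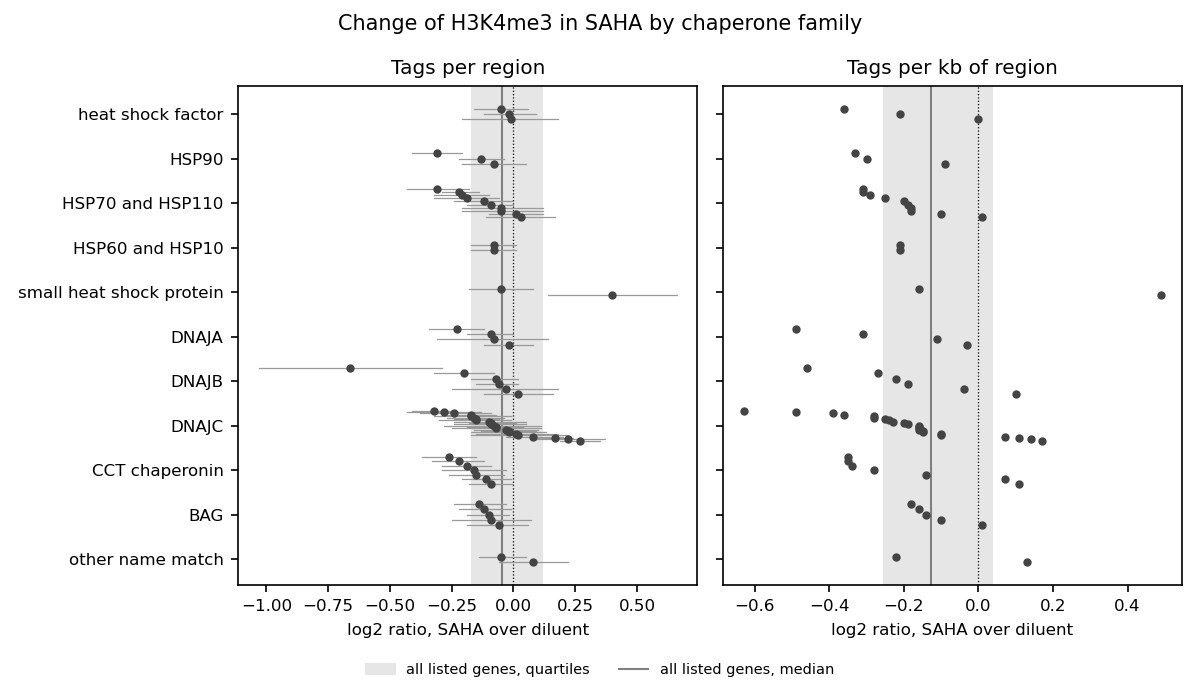
Log2 ratio of SAHA to diluent for each of the 67 genes by family, in tags per region (left, lines are 95% counting intervals) and in tags per kb of region (right, drawn without intervals). The grey band and line give the quartiles and median of 10535 listed genes, and the 7 CCT points all lie below 0 on the left but not on the right.

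The regions themselves were somewhat wider in SAHA, to the same degree as over all genes. The median width of the 67 was 2894 bp in diluent and 2982 bp in SAHA, beside 2396 and 2535 bp over all genes, and the median log2 width ratio was 0.08 in both sets. At the 67 genes, 48 regions were wider in SAHA (71.6%, against 72.2% of all genes) and 19 narrower. In tags per kb the median log2 ratio was -0.19, beside -0.13 over all genes. On that scale 0 members were at least 1.5-fold higher (2.94% of all genes) and 1, Dnajc1, was at least 1.5-fold lower (1.43% of all genes). The widest in diluent were those of Dnajb14 (7068 bp), Hspa8 (6809 bp), Hspa5, Dnajc1 and Dnajc8. In SAHA, part of the Dnajb14 stretch was assigned to H2afv, as described below. The narrowest were Dnajb3, Hspg2 (1391 bp), Dnajc21 (1417 bp), Dnajc28 (1436 bp) and Dnajc24 (1748 bp). Dnajc21, known from ribosome maturation, had 438 tags in diluent and 425 in SAHA (0.02). A second region, of 867 bp in diluent and 913 bp in SAHA, lay just upstream of its start. The width and tags given for Dnajc21 are those of the downstream region alone, so its place among the narrowest depends on this division. Dnajc24, of diphthamide synthesis, had 843 and 684 tags (-0.24).

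**Figure D3:**
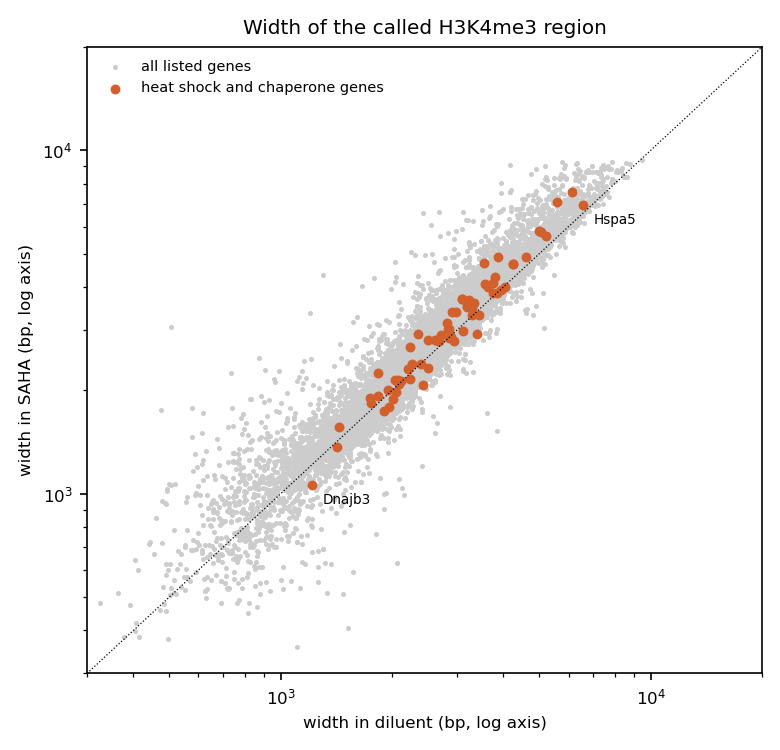
Width of the H3K4me3 region in diluent and in SAHA, both on log axes in bp, for the 67 paired chaperone genes (orange) over 10535 listed genes (grey). The dotted line marks equal width, and 48 of the 67 orange points lie above it.

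The constitutive HSP70 gene Hspa8 was among those whose regions did not pair 1 to 1. Hspa8, which encodes HSC70, had 1 region of 6809 bp with 2913 tags in diluent. In SAHA the same stretch was called as 2 regions, of 1846 bp with 570 tags and of 5356 bp with 2006 tags, parted by a gap from 284 to 197 bp upstream of the start. Their sum of 2576 tags gave a log2 ratio of -0.11 (interval -0.19 to -0.04). Dnajb14, an ER membrane J protein, was split in the same way, from 2799 tags into 1158 and 1008 (sum 2166, ratio -0.30, interval -0.39 to -0.22), with the gap ending 911 bp upstream. The upstream SAHA region of Dnajb14, with 1158 tags, was assigned to H2afv, so the sum is not of regions assigned to Dnajb14 alone. At Dnajb4, a cytosolic J protein, the diluent list had a region of 3451 bp with 1525 tags over the start. A second one of 537 bp, without a tag count, began 2867 bp downstream of the start. In SAHA a single region of 5853 bp with 1688 tags spanned both (0.21, interval 0.11 to 0.31, and -0.55 per kb). These ratios leave the second diluent region out, so they compare unlike stretches. At Hspb9 the reverse of a split was seen, as the region at its start (228 tags) and the next one, assigned to Kat2a (271 tags), were called as 1 with 596 tags in SAHA (0.32, interval 0.15 to 0.50). Hspg2 had 85 tags in diluent and 46 and 58 in the 2 SAHA regions (0.36, interval -0.07 to 0.79). Counted on regions called without a control, which leaves Dnajb4 out, split or merged regions were found at 4 of 73 members (5.48%). The share was 2.69% of all genes with summed regions.

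**Figure D4:**
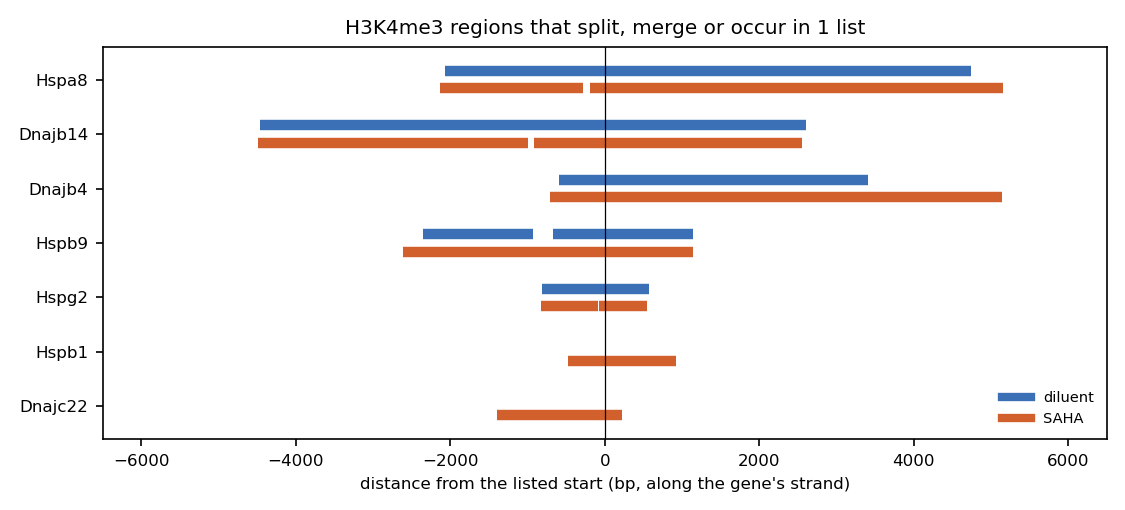
Extent of the called H3K4me3 regions in diluent (blue) and SAHA (orange), in bp from the listed start along the gene's strand, at the 7 genes without a 1-to-1 pair that had a region. Hspa8, Dnajb14 and Hspg2 have 2 orange bars where there is 1 blue bar, and Hspb1 and Dnajc22 have an orange bar alone.

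Further H3K4me3 regions without a counterpart within 5 kb of a start appeared in the SAHA list at 8 chaperone genes (10.3%, against 8.23% of all genes) and in the diluent list at 0 (2.41% of all genes). Besides Hspb1 and Dnajc22, they lay near Dnajb2, Dnajb11, Dnajc3, Dnajc14, Dnajc15 and Dnajc25, and at these 6 genes they flanked a start region present in both lists. The 1 at Dnajc25, 3704 bp from the nearest listed start, had 59 tags. Those near Dnajb11 and Dnajc3, both ER cochaperones, were 2345 and 2526 bp from the start and had scores of 95.92 and 57.25 in the authors' deposited table. The SAHA list holds more regions altogether, 25723 against 22255 in diluent.

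STAT3 regions lay near the starts of 19 chaperone genes in all, 5 in the diluent list alone (6.41%, against 4.56% of all genes), 11 in the SAHA list alone (14.1%, against 16.5%) and 3 in both. In diluent 8 of 78 genes had one within 5 kb (10.3%, interval 4.53 to 19.2), against 6.39% of all listed genes. In SAHA 14 of 78 had one (17.9%, interval 10.2 to 28.3), against 18.3% of all genes. The SAHA list is also the longer, with 8552 regions against 3507. Within 1 kb the counts were 5 (3.54% of all genes) and 11 (11.2%). The 7 separate regions in diluent included 6 that overlapped an H3K4me3 region of the same condition, and the 16 in SAHA included 15. The same share over all STAT3 regions near listed starts was not computed, so these counts show nothing particular to chaperone genes. H3K4me3 lay within 5 kb of 84.2% of all genes in diluent and 85.2% in SAHA. No chaperone gene had a region of the IgG library within 5 kb, while 0.276% of all genes did. Just inside the limit of 5 kb was the SAHA region 4682 bp upstream of Hsf4, and just outside it was a SAHA region 5295 bp from Dnajc18. Among the genes with 1-to-1 H3K4me3 regions, the median tag ratio was -0.09 for 13 with a STAT3 region in SAHA and -0.08 for 49 with none in either library.

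The genes with STAT3 regions in both conditions were Hspa1a, Hspa1l and Hsp90b1, 3.85% of the 78 against 1.83% of all genes, and the regions overlapped at all 3 (0.87% of all genes). With a score of at least 40 required in each list, 0 members had regions in both. At that score 3 members (3.85%, against 2.33% of all genes) had one in diluent and 10 (12.8%, against 7.65%) in SAHA. The share of all genes with both at that score is not given here, so the 0 shows nothing particular to chaperone genes. At Hspa1a and Hspa1l, which are divergent neighbours, it was a single shared region over both starts. It spanned chr17:35109014-35109891 (mm9) in diluent and chr17:35108858-35109897 in SAHA, reaching from 790 bp upstream of the Hspa1a start to 87 bp downstream in diluent. Its score in the authors' deposited table was 32.94 in diluent, rank 2311 of 3507, and 66.61 in SAHA, rank 278 of 8552. Scores of separate lists do not show a change. No STAT3 region was listed within 5 kb of Hspa1b, whose promoter letters are nearly those of Hspa1a. At Hsp90b1 the diluent region ran from 920 to 54 bp upstream of the start. In SAHA there were 2, one from 1237 to 556 bp upstream and one from 178 bp upstream to 353 bp downstream, and both overlapped it. The scores there were 33.4 in diluent and 39.22 and 30.39 in SAHA in the authors' deposited table, where the lowest score in these lists is 30.

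**Figure D5:**
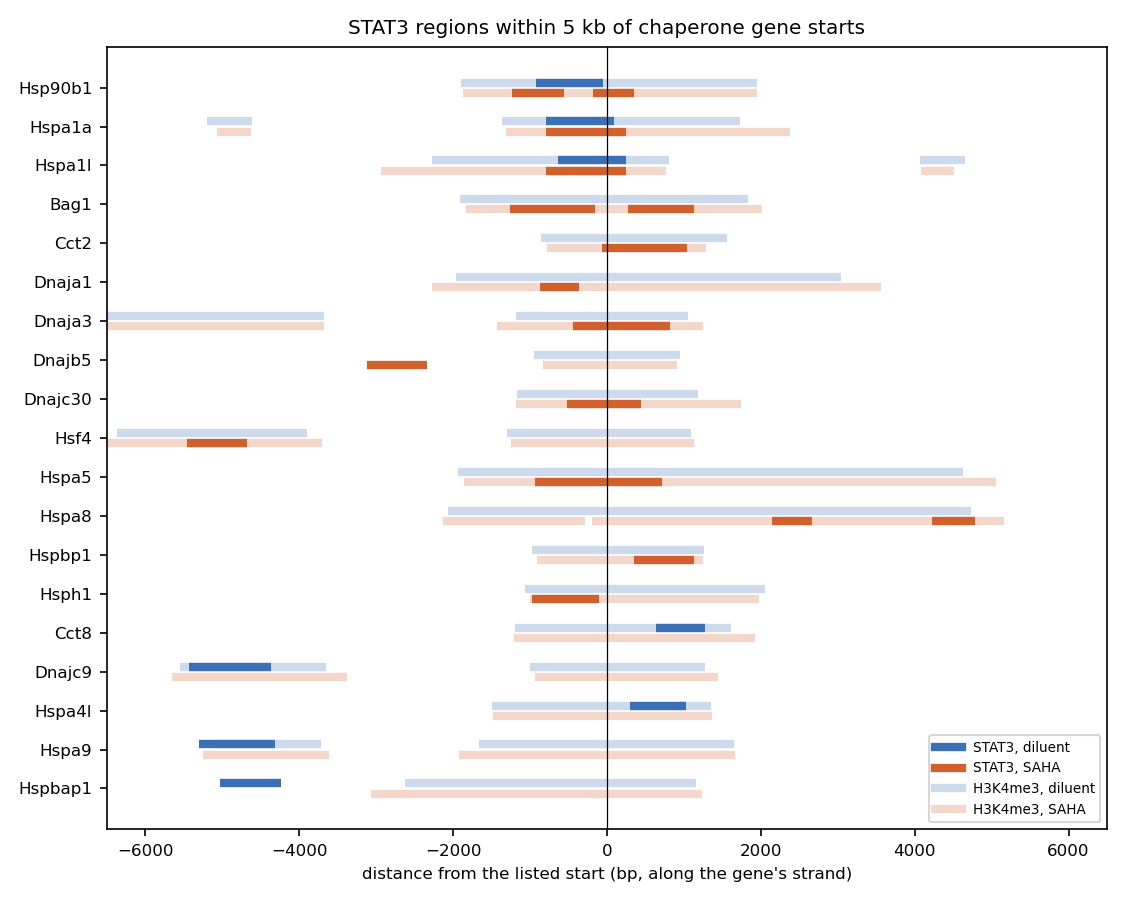
STAT3 regions (solid) and H3K4me3 regions (pale) in diluent (blue) and SAHA (orange) at the 19 chaperone genes with a STAT3 region within 5 kb, in bp from the listed start along the gene's strand. Hsp90b1, Hspa1a and Hspa1l, at the top, have solid bars in both colours, and most solid bars lie on pale ones.

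In 11 genes the STAT3 region was in the SAHA list alone. Cct2, a subunit of the CCT ring, had the highest-ranked one, from 67 bp upstream to 1044 bp downstream of its start, with a score of 82.1 (rank 81 of 8552) in the authors' deposited table. Dnaja3 had a region over its start with a score of 69.45 (rank 219) in the authors' deposited table. At Bag1 there were 2 regions, the first downstream with a score of 63.11 and the second, assigned to the neighbour Chmp5, upstream with 38.12 in the authors' deposited table. Hspa5 had a region of 1642 bp that covered its listed start, from 929 bp upstream to 712 bp downstream, and Hsph1 one from 978 to 97 bp upstream. In the authors' deposited table these 2 scored 51.47 and 49.99, at ranks 885 and 1024. Hspa8 had 2 regions, beginning 2140 and 4221 bp downstream of the start, with scores of 31.54 and 32.3 in the authors' deposited table. The remaining ones were at Hspbp1, a partner of HSP70 (354 bp downstream), Dnajc30 (over the start, assigned to Wbscr22), Dnaja1 (363 bp upstream, assigned to AK139295), Dnajb5 (2345 bp upstream and outside H3K4me3) and Hsf4 (assigned to Fbxl8). For Dnajb5 the score was 63.87 in the authors' deposited table, and its region, like that of Dnajc30, was also called without a control.

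In 5 genes it was in the diluent list alone. Hspa4l had a region 302 bp downstream of its start with a score of 45.89 (rank 493 of 3507) in the authors' deposited table, and Cct8 one 643 bp downstream with 36.19. Both of these, and the region of Hspbap1 named next, were also called without a control. The other 3 regions lay more than 4 kb upstream: that of Hspa9 at 4310 bp, that of Hspbap1, which binds HSP27, at 4238 bp and assigned to Dirc2, and that of Dnajc9, a histone-binding J protein, at 4361 bp and assigned to Mrps16. The nearest STAT3 region of the SAHA list was 19356 bp away at Hspa9 and farther at the other 4.

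Other chaperone and protein quality control genes, named by function and without a matching symbol, had the same median H3K4me3 ratio. Of 55 such genes 53 were listed, and 45 had 1-to-1 regions, with a median log2 ratio of -0.09. Of these ratios 30 were below 0 (66.7%, against 58.7% of all genes) and 15 above. Of the 45, 1 was at least 1.5-fold higher, Hmox1, the stress-induced heme oxygenase, with 1189 tags in diluent and 1758 in SAHA (0.63, interval 0.52 to 0.74). Its region widened from 4193 to 7666 bp, so per kb it was lower (-0.24). The next highest were Clpb (0.33) and Grpel1 (0.28), both of mitochondria, and the lowest were the prefoldin subunits Pfdn1 (-0.36) and Vbp1 (-0.35) and the ER enzyme Pdia4 (-0.31). H3K4me3 was present at 52 of the 53 in diluent and 53 in SAHA, Serpinh1, the collagen chaperone HSP47, being the gene with a region in SAHA alone. STAT3 regions lay within 5 kb of 3 of the 53 in diluent (Clpp, Sugt1 and Tomm70a) and of 15 in SAHA (28.3%, interval 16.8 to 42.3, against 18.3% of all genes), with 0 in both. Those in SAHA included the ER lectin chaperones Calr and Canx, the CCT subunit gene Tcp1, the HSP90 cochaperone Ptges3, the HSP70-linked ubiquitin ligase Stub1, the stress factor Atf4, and Sqstm1 and Hmox1. Canx, with a STAT3 region over its start in SAHA, had 1980 H3K4me3 tags in diluent and 1604 in SAHA (-0.24, interval -0.33 to -0.14), and Calr had 2339 and 2080 (-0.10, interval -0.19 to -0.02).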

How the data were processed

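The submitters' processing notes name BWA and the build mm9, with a BWA version not given in the sources used here. The authors called the regions of each library with MACS 1.4.0rc2, using no control, a p-value limit of 1e-05 and at most 2 duplicate tags per position, per the file headers. These deposited tables give a tag count per region, its length and its fold enrichment, a ratio that was not used here. The authors' deposited lists against IgG give a MACS score and 1 gene per region, by a procedure not given in the sources used here. Their starts count from 0 and were raised by 1.

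The members and lists were chosen with earlier results of these data known. A gene's start is the listed one on its strand, and a region belongs to it within 5 kb of its nearest edge. Tag ratios used regions that overlapped 1 to 1 between the H3K4me3 lists and whose ends recur in the single-library tables. They were scaled to filtered tags, with exact conditional binomial 95% intervals that cover counting error only. The intervals of shares treat genes as independent draws, although some genes share a region. They describe the number of genes counted and not the spread between libraries. Named members are the 5 highest and 5 lowest ratios, the 5 widest and narrowest regions, those with a STAT3 region, those without H3K4me3 in either list, and a set of textbook genes, and other genes in the text were named after their values were seen. From the other chaperone list, the 3 highest and lowest ratios and examples of the genes with STAT3 regions were named. Few STAT3 regions had tag counts, so no STAT3 ratio was computed, and with 1 library per group no p-value between conditions was computed. Alternatives covered the scaling, the unit, the distance, the score limit and the overlap. The software was Python 3.11.15 with numpy 2.4.6, matplotlib 3.10.9 and scipy 1.17.1. On counts simulated with counting error alone for 21342 diluent H3K4me3 regions, the intervals recovered 185 of 200 regions changed 2-fold. They covered the true ratio in 95.6%. The simulation held only the error that the intervals assume, with fixed region ends. It therefore checks the calculation and not the spread between libraries or region ends that differ between conditions.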

Additional observations from a re-analysis of the deposited data

How the results depend on the processing

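No paired analysis was possible because each group holds 1 library, and for the same reason none could be left out in turn. The members' median log2 tag ratio lay between -0.19 (tags per kb) and -0.04 (centred on all genes) under the 6 alternatives, below 0 in each. The number of ratios below 0 depended on the scaling. It was 51 of 67 when scaled to total tags and 48 when centred on all genes, in place of 56. Shares over all genes under these settings are not given here. In tags per kb, several ratios changed sign. Among them, Cct2 turned to 0.07, Cct6b to 0.11, Dnajb5 to 0.10, Dnajc8 to -0.16, Dnajc25 to -0.28, Dnajc30 to -0.23 and Hspa1b to -0.10. The median of the other chaperone genes moved to -0.22. With split and merged regions summed, 1 member, Hspb1, was at least 1.5-fold higher, in place of 0. With genes that have another listed start within 5 kb left out, 33 of 42 ratios were below 0, in place of 56 of 67. That is a somewhat lower share, and the share over all genes under this filter is not given here. In diluent, 5 members had a STAT3 region within 1 kb and 3 had one with a score of at least 40 (2.33% of all genes), in place of 8. In SAHA, 10 had one at that score (12.8%, against 7.65% of all genes), in place of 14. At a score of at least 40, 0 members had regions in both libraries, overlapping or not, in place of 3. The share of all genes with both at that score is not given here. With equal numbers of top regions from both lists, 11 members had one in SAHA (14.1%, against 9.49% of all genes). Genes with few tags, such as Dnajb3, Hspb1 and Hspg2, have wide counting intervals.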

Other observations

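Regions that the authors' lists assign to a chaperone gene but that lie beyond 5 kb of its start were set aside above. In the STAT3 lists there were 9 such regions in diluent, at 8 genes, and 11 in SAHA, at 9 genes. A region of each list overlapped about 10.2 kb from a listed start of Hsp90aa1, the inducible HSP90 gene, with scores of 43.88 in diluent and 31.02 in SAHA in the authors' deposited table. An H3K4me3 region was called at the same place in both conditions. The highest scores among these STAT3 regions in the authors' deposited table were 72.34 in diluent, 52.3 kb from Hspa13, and 68.13 in diluent, 40.5 kb from Hsf2. The SAHA list had a region 44.6 kb from Hsf2 that did not overlap that one. For H3K4me3, 18 regions in diluent and 26 in SAHA were assigned to a chaperone gene from beyond 5 kb.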
